A study of Mus musculus with 282 samples.

Results

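Single hematopoietic stem cells (HSCs) from adult mouse bone marrow were examined for the genes that encode the proteins of the cytosolic ribosome. The genes were taken by name: all protein-coding Ensembl genes of the deposited table whose symbol is Rpl or Rps followed by a digit, together with Rplp0, Rplp1, Rplp2 and Rpsa, without the Rps6k kinases and without pseudogenes. The rule found 86 genes among 49671 Ensembl rows, of which 21734 are protein-coding. Of these 86 genes, 77 encode proteins of the core ribosome, 46 of the large and 31 of the small subunit. A further 8 are paralog forms (Rpl3l, Rpl7l1, Rpl10l, Rpl22l1, Rpl36al, Rpl39l, Rps27l and Rps27rt). The remaining gene, Rps19bp1, encodes a binding partner of Rps19 and matched by name only, so that 85 ribosomal protein (RP) genes entered the sums. Rps19bp1 had 49.6 ± 10.5 CPM (counts scaled to 1 common total of gene counts per cell; SD, n = 6 sets) and reached 10 CPM in 34.9% of cells. Of the paralogs looked for, Rpl26l1 and Rps4l matched no row, and Fau and Rack1, genes of ribosomal proteins with other names, were followed separately.

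The cells came from 6 mice aged 12 to 22 weeks in 2 experiments, and were sorted as LSK CD48-/lo CD150+, where LSK means that the cells lack lineage markers and carry Sca-1 and Kit on their surface. All mice were Rosa26 rtTA/rtTA and Col1a1 H2B-GFP/H2B-GFP, the alleles of a doxycycline-controlled label-retention system, and all are labelled as not induced, so the 282 wells form 1 untreated group with no other genotype or treatment beside it. The labels give a library number, an HSC code, a plate and a well, but they name no animal. Library numbers begin with 29 or 32, and this start is called the library series here. Series and HSC code together give 6 sets, and whether the sets come from different animals is unknown. A set is written as its series and code, such as L32 HSC-2. A mean ± SD over sets therefore covers differences between sets only, and these can be technical.

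After wells with under 100000 gene counts or under 1000 genes were left out, 232 cells remained, 22 to 46 per set, with a median of 280096 counts (range 116009 to 1680714). No pair of cells had identical counts. Of 10 HSC markers, 8 reached 10 CPM in at least 50% of cells, among them Kit (84.5% of cells) and Ly6a, which encodes Sca-1 (72.4%). Slamf1, which encodes CD150, reached it in 19.4% and Cd48 in 0.862% of cells. Erythroid, B cell, T and NK cell, and mast cell and basophil markers summed to at most 63.6, 6.55, 23.5 and 25.8 CPM in any set. Megakaryocyte markers summed to between 148 and 276 CPM, and 10% or more of cells had 10 CPM of 4 of the 6. Endothelial and stromal markers summed to between 18.0 and 65.2 CPM, with Pecam1 (mean 45.2 CPM) the 1 of 5 at that level. Whether the reads of these markers came from HSCs or from other cells was not tested, nor was their relation to the RP values. Myeloid markers summed to between 454 and 822 CPM, with Lyz2 at 616 CPM the only 1 of 8 to reach 10 CPM in at least 10% of cells and Elane and Ctsg without a read. Cells of L29 HSC-4 had fewer genes (median 4151, where the other set medians were 5126 to 5686) and more mitochondrially encoded counts (6.66%, where the others had 3.28% to 3.73%).

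As background, a ribosome holds 1 copy of almost every RP, and the RP genes are transcribed at high and matched levels in growing cells. The messages begin with a pyrimidine tract, the 5′ terminal oligopyrimidine (TOP) motif, through which the mTOR pathway controls their translation. HSCs are known for a low rate of protein synthesis, and inherited loss of 1 copy of RP genes such as Rps19, Rpl5 or Rpl11 causes Diamond-Blackfan anemia. RP genes have also left very many processed pseudogenes in mammalian genomes, copies of the spliced message inserted elsewhere, some of which still match the parent base for base.

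Those copies bear on every level reported here. A search of the GENCODE M21 transcripts found 1383 rows of the table, 1377 of them not protein-coding, with at least 80% identity to the transcript of an RP gene over at least 50% of its coding sequence. At least 1 copy was found for 80 of the 85 RP genes, with a median of 11 and a maximum of 107 per gene. A stretch of the coding sequence is shown for 4 pairs to let the likeness be seen, with positions counted from the A of the start codon and bases that differ between parent and copy in capitals. The copies named here were chosen after their values were seen. The stretch covers positions 364 to 423 for Rpl14, where 7 of 651 coding bases differ in all, and positions 1 to 60 for Rpl3, where 2 of 1209 differ. For Rpl36a and its copy all 318 coding bases are the same, as are all 252 for Rps27 and Rps27rt, and 1 line stands for both genes.
Rpl14: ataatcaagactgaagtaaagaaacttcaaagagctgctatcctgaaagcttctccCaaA
Rpl14-ps1: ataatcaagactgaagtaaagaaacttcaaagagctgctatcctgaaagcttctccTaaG
Rpl3: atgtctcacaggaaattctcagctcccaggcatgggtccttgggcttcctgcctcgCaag
Rpl3-ps1: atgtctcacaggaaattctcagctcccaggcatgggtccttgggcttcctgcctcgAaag
Rpl36a and Rpl36a-ps2: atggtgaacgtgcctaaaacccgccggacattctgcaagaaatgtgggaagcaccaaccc
Rps27 and Rps27rt: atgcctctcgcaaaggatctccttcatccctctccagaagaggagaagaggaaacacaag

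The counts were divided between parent and copy rows, and the median per copy rose with identity. Median CPM per copy was 0.209 for the 538 copies of 80% to 90% identity, 1.43 at 90% to 95%, 5.21 at 95% to 98%, 22.1 at 98% to 99%, 34.6 above 99% and 112 for the 25 copies that matched in full. Summed over copies, the 97 rows of 99% to under 100% identity held 20460 CPM, those at 95% to 98% 13070, those at 98% to 99% 10060 and the full matches 8903. Rpl14-ps1 (chr7:45324965-45325617, mm10 throughout) held 1467 ± 126 CPM (SD, n = 6 sets) against 881 ± 111 for Rpl14 (chr9:120571444-120574654). Rpl3-ps1, on the X chromosome, held 1062 ± 61.2 CPM against 372 ± 33.2 for Rpl3 (chr15:80077794-80091868). Rpl36a-ps2 held 1087 ± 229 CPM against 96.0 ± 19.5 for Rpl36a (chrX:134585654-134588062), and Rpl10a-ps1 held 1102 ± 213 against 210 ± 51.4 for Rpl10a. The largest row was Gm14303, a predicted pseudogene on chromosome 2 that matches Rps29 in full, with 2010 ± 892 CPM against 189 ± 87.2 for Rps29 itself. The split of this pair was nearly constant from set to set, as Gm14303 held 91.5% ± 0.43 of the pair's counts, with 90.8% in the lowest and 92.0% in the highest set, and 90.5% to 92.3% in the middle 50% of cells. Rpl10a-ps1 ranged from 79.9% to 87.1% of its pair. Over the 77 core genes, the SD between sets of the part that the own row held in its family had a median of 0.91 percentage points. It was largest for Rpl30, singled out for this after its values were seen, whose own row held 47.0% ± 18.9 and ranged from 31.8 CPM in L32 HSC-2 to 380 in L29 HSC-4. Which of these rows a read came from cannot be read from the table for stretches where parent and copy are the same, and the handling of reads with several matching loci by the submitters is not known.

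**Figure D1:**
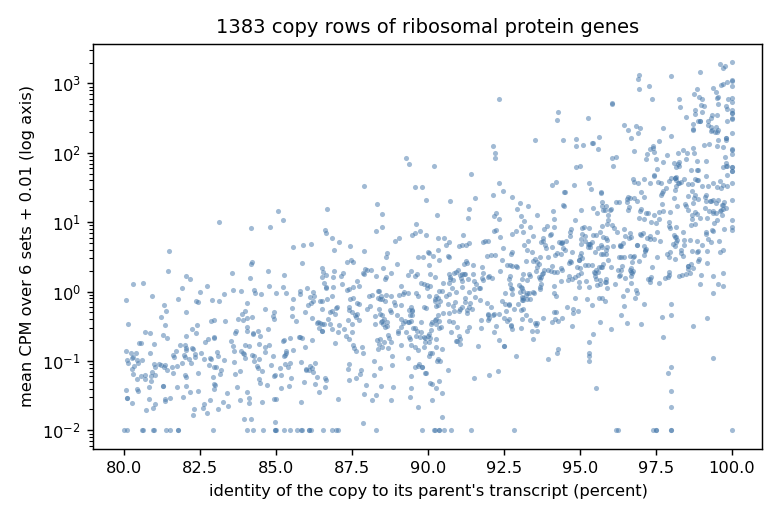
Each point is 1 of the 1383 copy rows; the x axis gives its identity to the parent's transcript in percent and the y axis its mean CPM over 6 sets plus 0.01 on a log axis. Copies rose from a median of 0.209 CPM below 90% identity to 112 CPM at full identity.

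Over the 6 sets, the median cell gave 5.33% ± 0.80 of its gene counts to the 85 RP genes (SD, n = 6). The set medians were 5.43% in L29 HSC-3, 6.90% in L29 HSC-4, 4.84% in L32 HSC-2, 5.16% in L32 HSC-3, 4.86% in L32 HSC-4 and 4.81% in L32 HSC-5. L29 HSC-4 was thus the highest, and without it the mean was 5.02%. Single cells ranged from 3.46% to 12.4%, and the highest cell lay in L29 HSC-4, where the share ran from 4.05% to 12.4%. The large subunit genes held 2.64% ± 0.28 and the small subunit genes 2.54% ± 0.46. The copies held a further 5.45% ± 1.08, so that RP genes and copies together came to 10.8% ± 1.82 of the counts.

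Across cells of a set, the RP share rose and fell with the share of the copies, with a Spearman rho of 0.95 (0.928 to 0.970 over the 6 sets). It ran against the number of genes detected (weighted mean rho -0.31, positive in 1 of 6 sets) and against the ratio of gene to spike-in reads, a measure of RNA content (-0.31, positive in 1 of 6). For the mitochondrial share rho was 0.19 and positive in 5 of 6 sets. L29 HSC-4 had the most extreme value of each of these 3 measures (-0.69, -0.75 and 0.50), and without it the weighted means were -0.20, -0.18 and 0.11. These correlations are descriptions over the 22 to 46 cells of a set, and the shares are parts of the same total. The part of RNA content in the share was not tested.

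**Figure D2:**
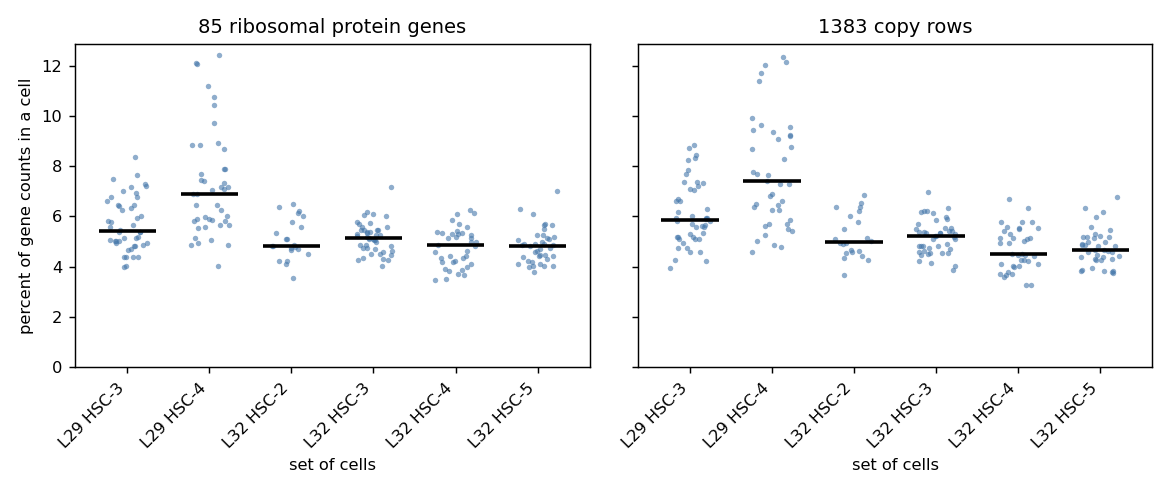
Percent of a cell's gene counts on the 85 RP genes (left) and on their 1383 copies (right), with 1 point per kept cell, by set, and a black line at the set's median. Set medians were 4.81% to 5.43% for the RP genes apart from L29 HSC-4 at 6.90%, and the copies follow the same order at the top.

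Nearly all RP genes were present in nearly all cells. At 10 CPM, which is 2.8 reads in the median cell, 82 of the 85 RP genes and 77 of the 77 core genes were found in at least 50% of cells, against 6.89% of all protein-coding genes and 4.28% of all Ensembl rows. In each of the 232 cells, 55 RP genes were found, 54 of them core genes, against 0.382% of protein-coding genes. The 3 RP genes under that line were the paralogs Rpl3l, Rpl10l and Rpl39l. By mean CPM, 14 RP genes lay above 1000, 53 between 100 and 1000 and 18 under 100.

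Per length, the stalk protein Rplp1 led. In CPM per kb of the table's gene length (RPKM), Rplp1 (ENSMUSG00000007892, chr9:61913284-61914542) stood at 5190 ± 1488 (SD, n = 6 sets). Its set means were 1951 CPM in L32 HSC-5, 1974 in L32 HSC-4, 2413 in L32 HSC-3, 2515 in L32 HSC-2, 2711 in L29 HSC-3 and 3974 in L29 HSC-4, and single cells ran from 672 to 9953 CPM with a median of 2339. Both sets of series 29 lay above the 4 sets of series 32. Rplp1 is also 1 of 5 RP genes whose own row held over 90% of the family's reads (94.7% ± 0.31), so little of its level turns on copies.

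Of the other stalk proteins, which with Rplp1 recruit the elongation factors, Rplp0 (chr5:115559467-115563727) had 1789 ± 162 RPKM and Rplp2 (chr7:141447370-141451585) 330 ± 72.0. Rplp0 varied little, from 2573 CPM in L32 HSC-3 to 3421 in L29 HSC-4, and from 1137 to 6734 CPM between single cells. With copies added it held 4399 CPM, of which 67.6% was its own row.

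The other large subunit genes among the 10 highest were Rpl32, Rpl4 and Rpl8. Rpl32 (chr6:115805505-115808747) had 2638 ± 531 RPKM, with sets between 2079 and 3536 CPM. Rpl4 (chr9:64173375-64178666), whose protein lines the exit tunnel, had 2367 ± 193 RPKM. It was lowest in the 2 sets of series 29 (4185 and 4473 CPM) and reached 4691 to 5250 CPM in the 4 sets of series 32, an order opposite to that of Rplp1. Rpl8 (chr15:76904071-76906318) had 2004 ± 260 RPKM and no copy in the search, and sets between 1480 and 2005 CPM.

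The small subunit gave Rps26 (2275 ± 751 RPKM), Rps14 (2024 ± 567) and Rps24 (1369 ± 378) among the 10 highest by table gene length. Per length of 1 principal transcript, Rps14 was at rank 3 of the 86 genes, but Rps26 at 12 and Rps24 at 26. Rps26 had 804 to 897 CPM in the 4 sets of series 32, 1055 in L29 HSC-3 and 1677 in L29 HSC-4. Rps14, the gene lost in the 5q- syndrome, had 2255 to 2542 CPM in series 32, 2923 in L29 HSC-3 and 4330 in L29 HSC-4. Rps24 (chr14:24490681-24496146) had 812 to 1150 CPM in series 32, 1297 in L29 HSC-3 and 1700 in L29 HSC-4, with 42.7% of its family's reads on its own row. In each of these genes the 2 series did not overlap and L29 HSC-4 was the highest set. Also among the 10 highest by table gene length was Rps27rt (1368 ± 440 RPKM, rank 15 per principal transcript length), the copy of Rps27 described with the paralogs.

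At the other end, the 5 lowest core genes by table gene length were Rpl12 (14.4 ± 4.71 RPKM), Rpl24 (16.8 ± 4.31), Rpl23a (20.9 ± 9.73), Rpl28 (25.3 ± 7.07) and Rpl9 (25.5 ± 5.62). Rpl24 and Rpl23a were found at 10 CPM in 65.9% and 68.5% of cells. In each of the 5 genes the own row held a small part of the family's reads: 10.7% for Rpl12, 4.27% for Rpl24, 4.00% for Rpl23a, 18.3% for Rpl28 and 7.08% for Rpl9. Rpl24 and Rpl23a also share 71.5% and 55.4% of their principal transcript with exons of other genes, as 16 of the RP genes do to some extent. Per principal transcript length, Rpl9 was at rank 69 of the 86 genes on its own row and at rank 36 with copies added, and Rpl23a at 81 and 52. By that length the lowest core gene was Rpl17, at 23.95 CPM per kb on its own row and 118.1 with copies added.

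Genes with known roles in blood lay between these. Rps19 had 156 ± 36.2 RPKM and sets from 608 to 1056 CPM, highest in L29 HSC-4. Rpl5 and Rpl11, which bind the 5S rRNA and, when free, the p53 regulator Mdm2, had 27.5 ± 5.18 and 34.5 ± 8.48 RPKM, with own rows holding 18.2% and 11.6% of their families. Rpl5 had set means from 80.7 to 130 CPM and Rpl11 from 73.3 to 122 CPM, and in neither did the 2 series separate. Rpsa, also known as the laminin receptor, had 92.0 ± 20.0 RPKM. Of the X-linked genes, Rps4x had 710 ± 128 RPKM and Rpl10, which acts at a late step of large subunit maturation, 46.7 ± 11.3.

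The range of levels narrowed when copies were counted with their parents. Per principal transcript length, the core genes' own rows spanned 75.2 to 1814 CPM per kb from the 10th to the 90th percentile, a ratio of 24.1. With copies added the span was 308 to 3172, a ratio of 10.3. The median of the 46 large subunit genes was 282 on their own rows and 1179 with copies, and that of the 31 small subunit genes 435 and 1669. In 34 of the large and 17 of the small subunit genes the own row held under 50% of the family. Over the whole family, the parents' own rows held 49.4% of the reads. The share was 51.3% when only copies of at least 95% identity were counted and 73.7% when only rows with a -ps name were. Rps29 was the highest of all with copies (7421 on the same scale) although its own row held 6.47% ± 0.33 of the reads, followed by Rps14, Rplp1, Rpl32, Rps9 and Rpl4.

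**Figure D3:**
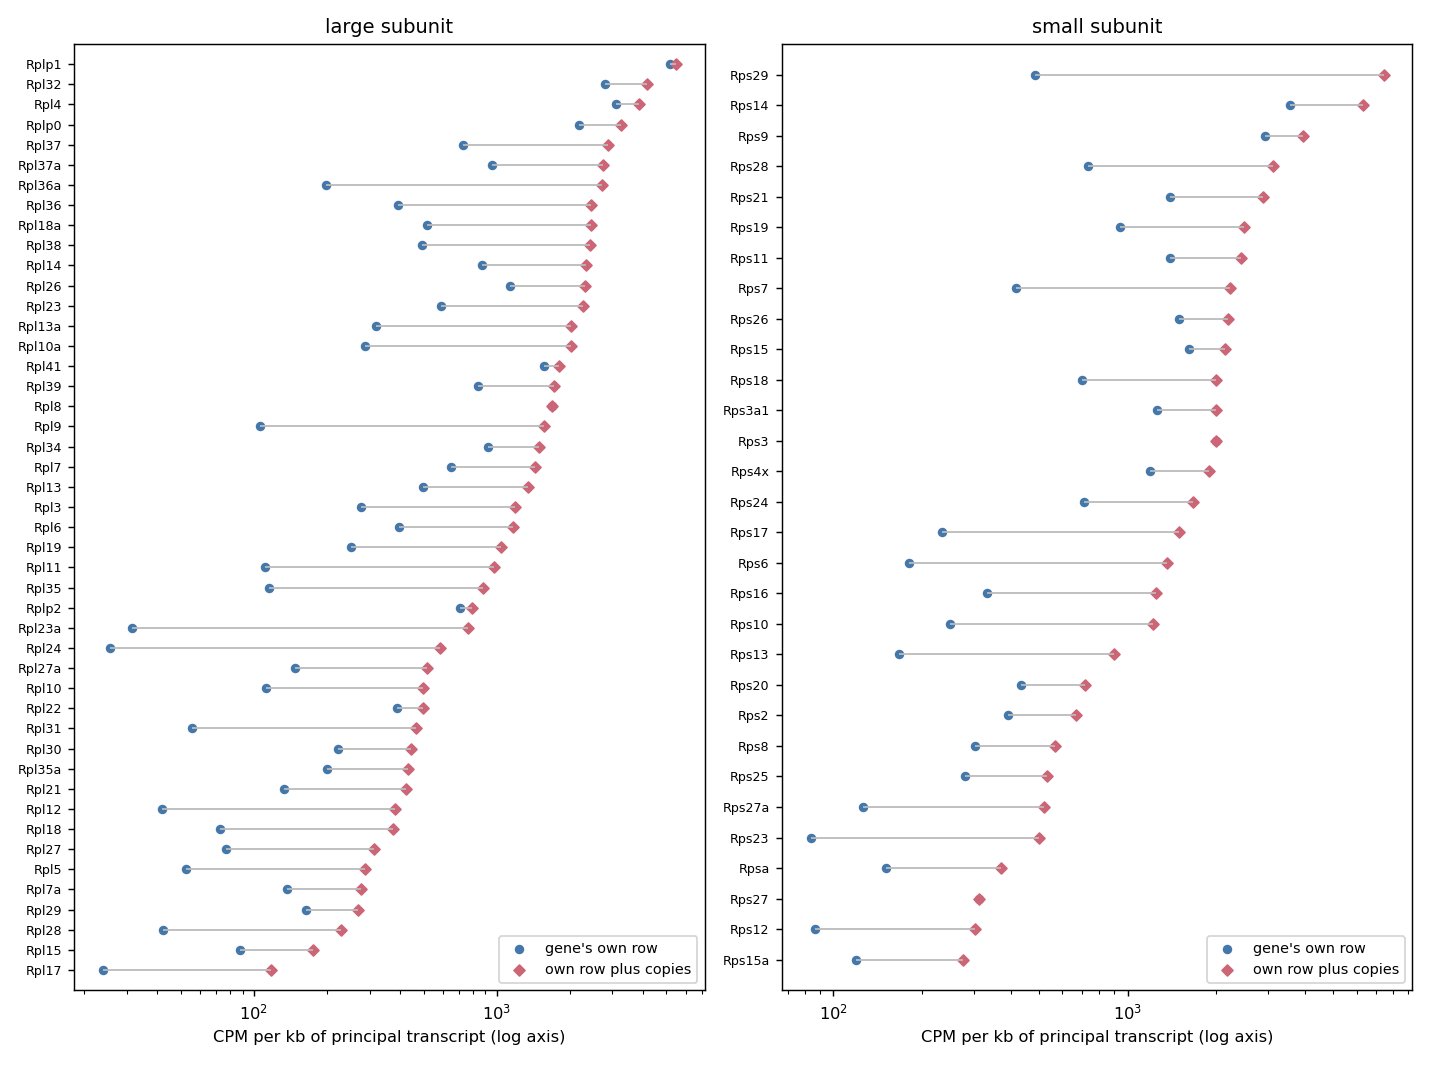
CPM per kb of principal transcript (log axis) for 46 large and 30 small subunit genes, as means over 6 sets. Blue circles give the gene's own row and red diamonds the own row plus copies; the grey line between them is long where most reads lie on copies, as for Rps29, Rpl36a, Rpl9 and Rpl23a, and absent where there is no copy, as for Rpl8 and Rps3.

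Of the paralog forms, 5 were expressed. Each is given as its reads per kb of table gene length, in percent of paralog plus parent. Rpl3l, a muscle form of Rpl3, had 3 reads in 1 cell, Rpl10l, a testis form of Rpl10, had 5 reads in 5 cells, and Rpl39l, a testis form of Rpl39, had 87 reads in 9 cells. Rpl10l reached 10 CPM in 0 of 232 cells. If the cells were independent, the 95% upper bound would be 1.29% of cells, but cells of a set are not independent replicates. Rpl39l held 1.16% of its pair in L29 HSC-4, 1.11% in L32 HSC-4 and at most 0.0901% in each other set, with a mean of 0.398%, or 0.245% without L29 HSC-4.

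Rpl22l1 (chr3:28805436-28807424) and Rpl22 (chr4:152325742-152334071) were found together in 97.4% of cells. Rpl22 is an RNA-binding ribosomal protein known as a tumour suppressor in T cells, and it is known to repress Rpl22l1. Rpl22l1 held 27.2% ± 3.4 of the pair per length, from 22.6% in L32 HSC-3 to 31.6% in L29 HSC-4, and lay above Rpl22 in 21 of 232 cells. In CPM Rpl22l1 had 207 ± 70.4, with 340 in L29 HSC-4 and 160 to 231 in the other 5 sets, and Rpl22 had 800 ± 129. The value depends on the length used, since the table gives the summed exons of all transcripts: with the length of 1 principal transcript it was 48.5% ± 4.4, and with copies added as well 67.5% ± 2.7. Across cells the partial rho between the 2 genes, computed as for the pairs in the heat map, was -0.01 as the mean over sets.

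Rps27 (chr3:90212522-90213651) is accompanied by Rps27l, a form known as a p53 target, and by Rps27rt, an intronless copy. Rps27rt (chr9:114982366-114982739) held 512 ± 164 CPM against 108 ± 42.3 for Rps27, or 93.1% ± 1.0 of the pair per length, and stood above Rps27 in 232 of 232 cells. As their coding bases are the same, this split is uncertain. Rps27l (chr9:66946086-66949516) had 268 ± 115 CPM, with 497 in L29 HSC-4 against 187 to 251 in the other sets. It held 76.0% ± 3.3 of the pair with Rps27 per length (63.2% per principal transcript) and stood above Rps27 in 195 of 232 cells. This share is uncertain as well, since it turns on how reads were divided between Rps27 and Rps27rt. With the reads of Rps27rt counted for Rps27, Rps27l held 18.0% ± 2.1 per table length, and 23.9% ± 2.5 per principal transcript. The mean partial rho with Rps27 across cells was 0.40 for Rps27rt and -0.17 for Rps27l.

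Rpl36al (chr12:69182731-69184083), an intronless form of Rpl36a, held 73.3% ± 1.7 of the pair per length, between 71.2% and 75.5% in the 6 sets, and stood above Rpl36a in 84.5% of cells. With principal transcript lengths alone Rpl36al held 45.9%, and with copies added as well, Rpl36a-ps2 among those of Rpl36a, 6.71% ± 0.87. Rpl7l1 (chr17:46773907-46782656) held 24.2% ± 5.5 of the pair with Rpl7 and was found together with it in 62.5% of cells; its share was 17.8% in L29 HSC-4 and 32.1% in L32 HSC-5. With principal transcript lengths it held 12.2% and with copies 6.71%. The order Rps27rt, Rps27l, Rpl36al, Rpl22l1, Rpl7l1 holds on table lengths with Rps27rt kept apart from Rps27, where Rps27l and Rpl36al overlap between sets, as do Rpl22l1 and Rpl7l1.

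**Figure D4:**
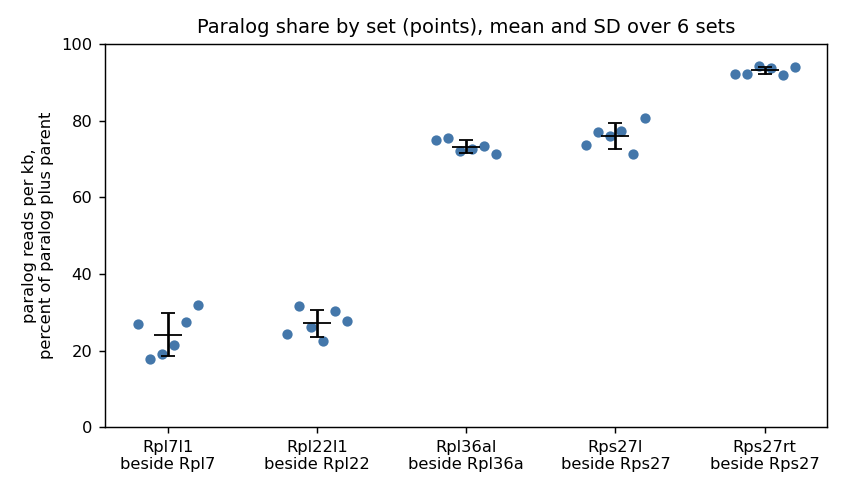
Share of each expressed paralog in percent of the reads per kb (table gene length) of paralog plus parent, with 1 point per set and the mean and SD over 6 sets in black. Rpl7l1 and Rpl22l1 lie between 17.8% and 32.1%, Rpl36al and Rps27l between 71.2% and 80.8% and Rps27rt above 92%.

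The RP genes varied together from cell to cell. For each set, a partial Spearman rho of log2(CPM/10 + 1) was taken between genes, adjusted for plate and for the ranks of total counts and of genes detected, over the 82 RP genes found in at least 50% of cells. Over their 3321 pairs the median rho was 0.156 ± 0.034 (SD, n = 6 sets; range 0.111 to 0.193). Over all pairs of the 2126 genes tested the median was 0.00722 (0.00459 to 0.0125 over sets), and between RP genes and other genes it was 0.0174. Of the RP pairs, 92.2% had a positive mean rho and 29.9% were positive in 6 of 6 sets. The matching shares over all gene pairs, and over pairs of RP genes with other genes, were not computed. Only the median rho can therefore be set against a background here. With the reads of copies added to their parents the median rose to 0.225. The cells of a set share library preparation and depth, and a gene's median rho with the other RP genes followed its mean CPM (rho 0.57 across the 82 genes, which are not independent replicates).

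By subunit, the median rho was 0.212 over the 465 pairs within the small subunit, 0.165 over the 1426 pairs between the subunits and 0.136 over the 1035 pairs within the large subunit. Set medians ran from 0.159 to 0.261 within the small and from 0.0884 to 0.174 within the large subunit. The difference was not tested, and a gene's rho followed its mean CPM as given above. The genes with the highest median rho to the rest were Rplp1 (0.28), Rps21 (0.26), Rps20 (0.26), Rps16 (0.25) and Rps14 (0.25). The highest pair was Rpl41 with Rps26 (0.57, positive in 6 of 6 sets), which encode the smallest RP and an RP at the mRNA exit channel, followed by Rps21 with Rplp1 (0.54). The lowest were the paralogs Rpl7l1 (-0.05) and Rpl22l1 (0.04) and the core genes Rpl15 (-0.00), Rpl10 (0.04) and Rpl24 (0.04). Of these, Rpl24 had a mean of 17.7 CPM and 1208 reads over all kept cells, whereas Rpl15 had 170 CPM and Rpl7l1 236 CPM.

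**Figure D5:**
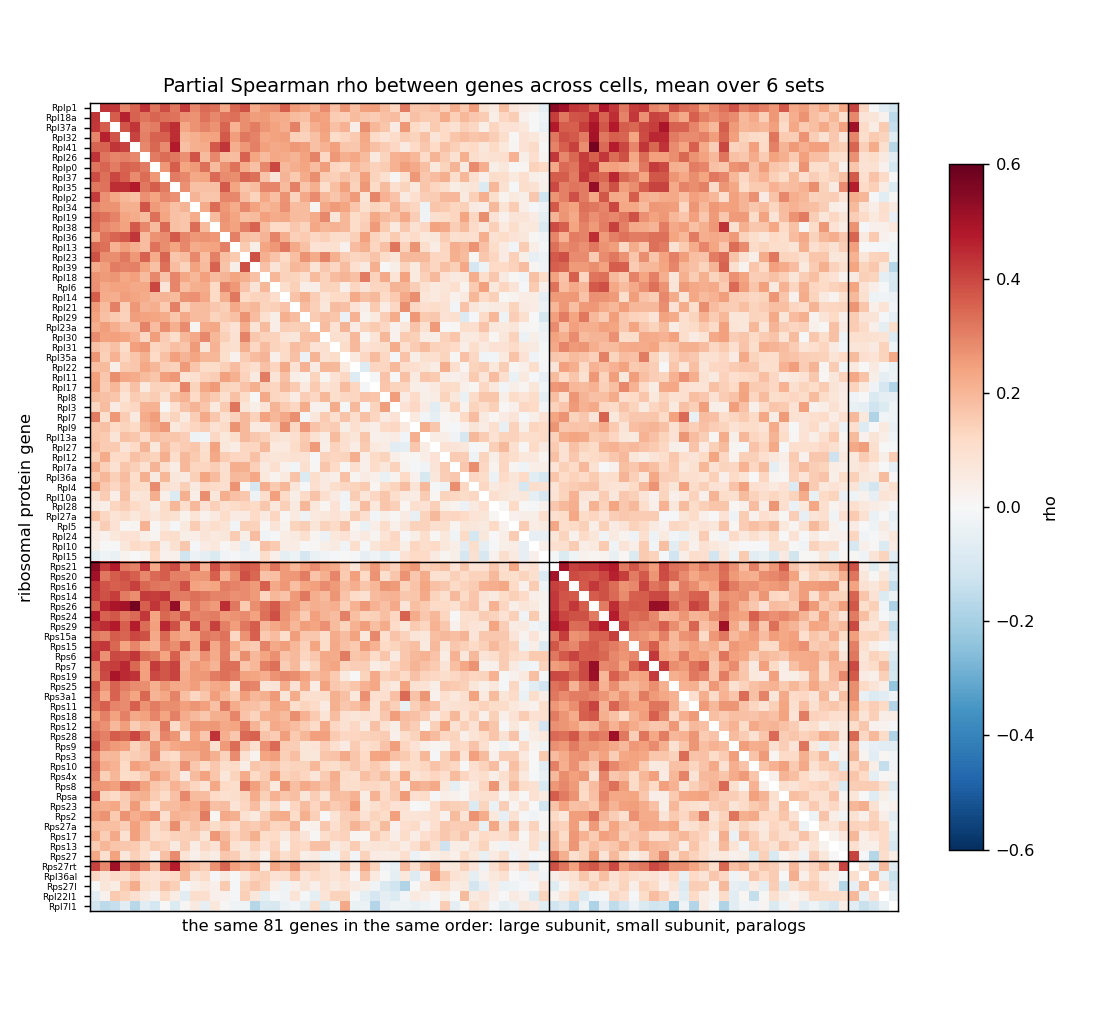
Partial Spearman rho between 81 RP genes across cells, as the mean over 6 sets, on a color scale from -0.6 to 0.6. Rows and columns hold the large subunit, the small subunit and the paralogs, each sorted by median rho with the other RP genes; red in nearly all fields shows the prevalence of positive pairs, and the palest large subunit rows are those of Rpl24, Rpl10 and Rpl15.

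An RP score, the mean log value of the RP genes with the gene in question left out, had a positive mean rho with 80 of the 82 RP genes. The median was 0.38 against 0.02 over all genes tested, whose share with a positive mean was not computed. In 6 of 6 sets 64 RP genes were positive, against 16.3% of the 2126 genes. That background includes the RP genes themselves and 220 of 292 copies. Of the 1752 genes that were neither, 62 (3.54%) were positive in each of the sets. Rpl15 (rho -0.00, positive in 3 of 6 sets) and Rpl7l1 (-0.13, positive in 1 of 6) were the 2 RP genes without a positive mean.

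The 10 leading other genes included genes of translation and of mitochondria. Rack1, a ribosome-bound signalling scaffold, had a mean level of 2091 CPM and a rho of 0.36 ± 0.14 (SD over sets, n = 6). Its rho was 0.39 in L29 HSC-3, 0.30 in L29 HSC-4, 0.46 in L32 HSC-2, 0.48 in L32 HSC-3, 0.42 in L32 HSC-4 and 0.09 in L32 HSC-5. Fau, the precursor of a small subunit protein, had 0.25, the elongation factor subunit Eef1b2 0.30 and Naca, which binds nascent chains at the ribosome, 0.26. Atp5e and Cox8a, subunits of ATP synthase and of cytochrome oxidase, had 0.33 and 0.26, the mitochondrially encoded mt-Co2 0.26 and the antioxidant enzyme Gpx1 0.28. The other 2 of the 10 leading genes, Nphs1 and Wdr89, carry RP sequence. The GENCODE M21 transcripts of Wdr89 hold 447 bases that are 99.3% identical to Rplp2, and an Rps12 copy of 99.5% identity lies within the Nphs1 gene on the opposite strand and covers 183 bases of its exons.

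In the other direction 30 of 2126 genes (1.41%) were negative in 6 of 6 sets, and none was an RP gene. They were led by Edem2 (-0.25), which takes part in the disposal of misfolded glycoproteins, the kinase gene Stk4 (-0.23), Polr2m (-0.22), Cd47 (-0.22), which encodes the surface signal against phagocytosis, and Samsn1 (-0.21). Slc25a4 (-0.21), Eif4a2 (-0.18), Hmgn2 (-0.17), Rfc2 (-0.16) and the pan-leukocyte gene Ptprc (-0.16) followed. With any 1 set left out this count was 51 to 74 genes, where 5 rather than 6 sets had to share the sign. With all 6 sets it was 32 under a cell filter of 3 median absolute deviations, and 54 with plate as the only covariate.

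Lists of related genes gave smaller values than the RP genes. Elongation factors and known TOP messages had 0.21 ± 0.20, positive in 4 of 6 sets, and 5 of the 18 tested were positive in 6 of 6 sets, led by Eef1b2, Naca and Eef1g (0.25). The lowest of that list were Eif3e (-0.03), Nap1l1 (-0.03) and Eif3h (-0.03). Mitochondrial RP genes had 0.20 ± 0.18 (5 of 6 sets), led by Mrpl30 (0.17), Mrps21 (0.17) and Mrpl4 (0.12), and 0 of the 9 tested were positive in 6 of 6 sets. Nuclear genes of the respiratory chain had 0.10 ± 0.16 (5 of 6), led by Uqcrh (0.22) and Ndufb7 (0.18).

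Genes that build or regulate ribosomes did not follow the score with a stable sign. Assembly factors had 0.01 ± 0.23 and were positive in 3 of 6 sets, with Nop10 (0.14), Nhp2 (0.11) and Gnl3 (0.11) at the top and Nop56 (-0.09), Bccip (-0.07) and Wdr12 (-0.06) at the bottom. Regulators of TOP messages had 0.00 ± 0.25 (3 of 6), from Eif4ebp1 (0.02) to Ssb (-0.18), and genes of rRNA and tRNA transcription -0.02 ± 0.10 (3 of 6). Initiation and termination factors had -0.00 ± 0.23 (3 of 6), from Eif6 (0.09) to Eif4a2 (-0.18). The Myc network had 0.03 ± 0.31 (3 of 6), the p53 genes linked to free Rpl5 and Rpl11 -0.07 ± 0.09 (2 of 6), whereas Trp53, the 1 gene of that list that was tested singly, had 0.14 and was positive in 6 of 6. Scores gave S phase genes 0.04 ± 0.19 (4 of 6), lysosomal genes -0.02 ± 0.22 (4 of 6) and immediate early genes -0.10 ± 0.16 (2 of 6). Long-term HSC genes had -0.16 ± 0.31 and were negative in 5 of 6 sets, from Eng (0.10), Gimap5 (0.07) and Procr (0.05) to Ctsb (-0.15), Meis1 (-0.14) and Sult1a1 (-0.13). L32 HSC-2, the set with the fewest cells, had the opposite sign for this list (0.46).

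RP genes were also less scattered between cells than other genes of the same mean. For each gene and set the squared coefficient of variation (CV) of CPM was set against the running median over 201 genes of like mean. The median CV was 39.5% for RP genes and 103% for all 2126 genes. On the log2 scale of squared CV the RP genes lay at a median of -1.70 ± 0.25 (SD, n = 6 sets), and 78 of 82 were below the trend. For that count the share over all genes was not computed. In 6 of 6 sets 67 RP genes were below it, against 26.1% of all genes tested. The least scattered for their mean was Rps6, the target of the S6 kinases, at -3.41 with a CV of 37.2% ± 8.6. The most scattered were Rpl12 (0.80, CV 125%), Rpl24 (0.39, CV 86.8%), Rpl7l1 (0.23, CV 126%), Rpl9 (0.01, CV 111%) and Rpl15 (-0.08, CV 118%). Rpl7l1, Rpl15 and Rpl24 are also 3 of the 5 genes least tied to the other RP genes. The spread holds counting and PCR noise as well as differences between cells.

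Counts summed per set were compared between the 4 sets of library series 32 and the 2 of series 29. This split was read from the library numbers, and the labels do not state what it stands for. The RP genes were lower in series 32 by a median log2 fold change of -0.40, against 0.07 over all 16476 genes tested, and 5 of 83 RP genes had a positive value. The matching share over all genes was not computed. Set sums were also scaled to CPM by total counts, without TMM. On this scale the sets of the 2 series did not overlap for 56 of 83 RP genes, against 22.5% of all genes. Of the 56, 54 were higher in series 29. Rps29 had 230 and 320 CPM in series 29 against 125 to 153 in series 32. Its log2 fold change, fitted with TMM like those that follow, was -0.91 ± 0.23 (SE). Rpl34 had 637 and 876 CPM against 432 to 466, with a log2 fold change of -0.70 ± 0.18. Rplp1 had a value of -0.44 ± 0.18, Rps26 -0.49 ± 0.21, Rps19 -0.38 ± 0.19 and Rpl5 -0.25 ± 0.29.

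None of these passed the test. In edgeR's quasi-likelihood test with Benjamini-Hochberg adjustment over all genes, 0 of 83 RP genes and 0 of 16476 genes (0%) had an adjusted p under 0.05, and the smallest adjusted p among RP genes was 0.377 for Rpl34 and 0.382 for Rps29. At an unadjusted p under 0.05 there were 21 RP genes and 1433 genes in all (8.7%). DESeq2 called 410 genes and limma 60, and neither called an RP gene. L29 HSC-4 was the highest set for 70 of 83 RP genes, and the matching share over all genes was not computed. Without it, the RP genes' median log2 fold change was -0.16, against 0.14 over all genes. Of the 83 RP genes 18 were positive, and here too the share over all genes was not computed. Without L29 HSC-3 the RP genes' median was -0.57, against 0.27 over all genes. Each of these fits leaves 1 set in series 29, so only effect sizes are given. The lower number of genes detected and the higher mitochondrial share of L29 HSC-4 go with the same set, and their part in the difference was not tested.

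Wells with few gene reads beside their spike-in reads, called near-empty here, were set against the kept cells. In 38 wells of series 32 that fell under the filter, fewer reads lay on genes than on spike-in RNAs. Summed, 22 such wells of L32 HSC-2 gave 8.29% of 439439 gene reads to RP genes (exact 95% interval 8.21% to 8.37%, for counting error only), against 5.04% in the set's kept cells. In L32 HSC-3, 16 wells gave 4.17% of 177356 reads (4.08% to 4.27%) against 5.10%. With all wells under the filter instead, 25 wells of L32 HSC-2 gave 7.55% and 20 of L32 HSC-3 gave 5.52%, so that in L32 HSC-3 the direction turned. In series 29, where no well was near-empty, 1 well of L29 HSC-3 under the filter gave 13.2% against 5.62% and 4 of L29 HSC-4 gave 11.2% against 6.99%. For single genes, counts were summed over L32 HSC-2 and L32 HSC-3 on each side and not split by set. L32 HSC-2 gave 439439 of the 616795 near-empty reads but 22 of the 66 kept cells, so the sides differ in their mix of sets. Of the 85 RP genes, 61 were higher in CPM in the near-empty wells than in the kept cells of these 2 sets, against 34.3% of the genes tested. Rps14 (6680 CPM against 2350), Rpl32 (5102 against 2276) and Rps27rt (2004 against 429) were higher there, and Rplp0 (916 against 2801), Rpl4 (1231 against 4641) and Rpl3 (243 against 403) were lower. Rpl3l and Rpl10l had 17.8 and 35.7 CPM in these wells against 0.123 and 0.0819 in the kept cells. With 616795 gene reads in the near-empty wells, these values rest on few reads. What these wells held is not stated in the labels.

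As members of the group varied together, the sequence around their start sites was examined in the RefSeq promoter table (GRCm38.p6), which holds 57 of the 77 core genes among 27025 genes. A gene with several starts counted when any of them held the motif. A run of at least 8 pyrimidines (C or T, on the gene's strand) within 25 bases of the start was present in 52.6% of these core genes and 22.3% of all genes, and a run of at least 6 in 71.9% and 47.8%. Over 300 bases, 250 before to 50 after the start, and on both strands, the ETS motif CCGGAAGT was present in 19.3% against 4.31% and the YY1 motif ATGGCGGC in 7.02% against 2.61%. The E-box CACGTG was present in 10.5% against 8.09%, and TATAAA in 10.5% against 15.7%. None of these motifs contains another, and a match is a description, not a site. The 60 bases around the start are shown for the highest pair, Rps26 (chr10:128626487-128626546, minus strand) and Rpl41 (chr10:128549149-128549208, minus strand), and for the 2 genes with no positive rho to the score, Rpl15 (chr14:18270967-18271026, minus strand) and Rpl7l1 (chr17:46782637-46782696, minus strand). Each runs from 40 bases before the annotated start to 20 after it, with the longest run of C or T among the 60 bases in capitals (the first where 2 are equal).
Rps26: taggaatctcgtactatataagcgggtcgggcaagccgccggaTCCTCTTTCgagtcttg
Rpl41: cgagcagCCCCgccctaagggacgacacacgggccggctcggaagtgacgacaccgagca
Rpl15: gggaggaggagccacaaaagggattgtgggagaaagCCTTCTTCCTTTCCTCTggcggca
Rpl7l1: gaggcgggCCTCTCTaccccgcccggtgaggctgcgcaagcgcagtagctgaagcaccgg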

How the data were processed

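Poly(A) RNA of single sorted cells was reverse-transcribed, amplified by 22 PCR cycles and tagmented, per the labels' protocols, with no molecular identifiers, so reads are not independent molecules. The authors deposited 1 table of raw read counts for all genes and cells. The submitters' processing notes name GSNAP, featureCounts (1.6.2) and mm10; for strand and for reads with several matches no setting is given in the sources used here. Of all counts 11.7% lay on 92 spike-in RNAs, which stayed out of totals and tests. Depth per cell (median 280096 gene counts) makes 10 CPM equal to 2.8 reads.

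CPM and reads per kb were computed from the deposited counts. Copies were assigned with blastn 2.17.0 against GENCODE M21 transcripts. Set sums were tested with edgeR 4.0.16 (TMM, filterByExpr), with DESeq2 1.42.0 and limma 3.58.1 as alternatives. Correlations between genes and scores are partial Spearman values per set, averaged with weights by cells. Those of the RP share with other cell measures are Spearman values without adjustment, averaged in the same way. The median rhos over all RP pairs, over all gene pairs and between RP genes and other genes are unweighted means over sets. Scripts were tested on simulated data. The members and gene lists were chosen with earlier results of these data known. The naming rule took the 10 highest and 5 lowest core genes per length, the paralog pairs, 10 genes of known role, the 5 genes at each end of co-variation, the 5 most scattered, the 10 leading other genes per direction and the 3 at each end of each list. Some genes that the rule takes, and a list that holds 1 of them, are not reported here. The G2/M list had too few detected genes for a score. Alternatives covered cell filters, detection levels, lengths, copies, covariates, normalization, leaving out each set, and a replicate block on the HSC code. Animals are not named, so no value is tested over animals.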

Additional observations from a re-analysis of the deposited data

Results flagged for a closer look

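Of 49 values compared over the 6 sets, 7 had 1 set far from the others by Dixon's ratio at its 95% critical value. Chance gives about 1 in 20 for independent values. These values are not independent, since the RP shares contain the single genes that were compared as well. In each of the 7 the set was L29 HSC-4, which also had the fewest genes and the highest mitochondrial share. Its median RP share was 6.90% (next 5.43%) and that of the paralog forms 0.203% (next 0.140%). Its mean levels were 3536 CPM for Rpl32 (next 2561), 1677 for Rps26 (next 1055), 4330 for Rps14 (next 2923), 1056 for Rps19 (next 761) and 497 for Rps27l (next 251).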

How the results depend on the processing

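Of 475 values under alternatives for 41 results, 434 stayed within the spread or on the same side of the threshold, 34 moved and 7 reversed. With copies added the RP share was 10.8% and the median rho 0.225; the own rows' part of family reads was 51.3% at 95% identity and 73.7% with -ps names only. Paralog shares without division by length were 20.3% (Rpl22l1), 69.1% (Rpl36al), 71.3% (Rps27l) and 82.9% (Rps27rt). With principal transcript lengths they were 48.5%, 45.9%, 63.2% and 81.7%, and 12.2% for Rpl7l1; with copies as well 67.5%, 6.71%, 66.7% and 83.8%, and 6.71% for Rpl7l1. With the reads of Rps27rt counted for Rps27, Rps27l held 18.0%. Genes negative with the score in each set numbered 54 with plate as the only covariate and 51 and 55 without HSC-3 and HSC-4 of series 29, and, in series 32, 58 without HSC-2, 65 without HSC-3, 58 without HSC-4 and 74 without HSC-5. With all wells under the filter, RP shares were 7.55% (L32 HSC-2) and 5.52% (L32 HSC-3). Between library series, DESeq2 called 410 genes, limma 60, no low-count filter 2 and the filter of 3 median absolute deviations 1, against 0; RP genes called stayed at 0 in each. The RP genes' median ranged from -0.57 to -0.16 with 1 set left out. The log2 fold changes that changed sign were Rplp0 0.034 with no low-count filter and 0.046 without L32 HSC-3; Rplp0 0.15, Rpl11 0.043 and Rpl22 0.052 without L29 HSC-4; and Rpl10 0.032 without L32 HSC-2 and 0.022 without L32 HSC-4; the cause was not tested. With the HSC code as a replicate block (codes 3 and 4 only) 0 genes were called and the RP genes' median was -0.39; the code's meaning is not labelled, so this is no pairing by animal.

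Limits: levels of single RP genes rest on a split between near-identical rows. Overlapping genes on opposite strands cannot be told apart without strand. Where the overlap is on the same strand, as over 71.5% of the principal transcript of Rpl24, strand would not separate them. Near-identical rows of genes other than RP genes were not joined.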
